A study of Homo sapiens with 6 samples.

Results

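The genes described here are 37 genes of cholesterol and fatty acid synthesis, chosen by gene name from the 66351 gene models of the deposited expression table. They were 18 enzymes of sterol synthesis, 5 regulators of the pathway, 2 genes of sterol transport, 9 enzymes of fatty acid and glycerolipid synthesis, and 3 genes that respond to sterol excess and are called efflux genes below. Each of the 37 names matched 1 gene model. RNA-Seq was performed on SAS-Fucci cells, human cells from a tongue squamous cell carcinoma with a fluorescent indicator of the cell cycle (Fucci), with 2 libraries in each of 3 groups. Control cells (Cont) received a non-targeted siRNA, and the other groups received IGFBP3 siRNA #1 and were collected 48 h (siIGFBP3-48h) or 72 h (siIGFBP3-72h) later, with each siRNA at 5 nM. All groups therefore share the line, the Fucci reporter and the lipid transfection reagent. The 72 h cells had fresh medium from 48 h on, and the medium change and the later time cannot be told apart. The collection time of the control cells is not given in the sources used here, and neither is whether libraries of a group represent separate cultures, so that the p values measure the spread between these libraries, which may be technical. The knockdown was by a single siRNA in a single line, and the effect of its sequence and the effect of IGFBP3 loss cannot be told apart.

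Expression was given as FPKM, the reads assigned to a gene divided by the length of its model and by the total of the library. Levels are thus adjusted for model length and depth only, and not for other differences between genes or libraries. Between 17430735 and 21579574 reads per library were assigned to genes. IGFBP3, the targeted gene, had 24.7 and 23.1 FPKM in the controls, 0.261 and 0.258 after 48 h, and 1.52 and 3.25 after 72 h. Its log2 fold change of FPKM + 1, the scale of every fold change below, was -4.30 (SE 0.22, adjusted p = 0.000549) at 48 h and -2.93 (SE 0.22, adjusted p = 0.002185) at 72 h. All 10 squamous epithelial markers reached 1 FPKM, whereas 1 of 6 fibroblast markers (COL1A1, at most 1.28 FPKM), 0 of 4 endothelial markers and 0 of 5 leukocyte markers did. The summed FPKM of the squamous markers was 1018 and 877 in the controls, 536 and 493 after 48 h, and 791 and 807 after 72 h, and its part in the results below was not tested. The cells were measured in bulk, in which fewer cells of a kind and less RNA per cell cannot be told apart.

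Cells build cholesterol from acetyl-CoA through the mevalonate pathway, in which isoprenoid units are joined to squalene, cyclized to lanosterol and trimmed to cholesterol, and they build fatty acids from acetyl-CoA by way of malonyl-CoA. Both pathways are under the control of the SREBP transcription factors, which INSIG proteins and the escort protein SCAP hold in the endoplasmic reticulum when sterols are plentiful, and which are carried to the Golgi and released by cleavage when sterols run low. Sterol excess instead activates LXR, a nuclear receptor that raises cholesterol export.

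Of the 37 genes, 33 had at least 1 FPKM in at least 2 of the 6 libraries and were tested among 11214 genes, and 32 reached 1 FPKM in all 6 libraries. At 48 h, 5 members were called higher at an adjusted p under 0.05, which were the fatty acid and glycerolipid genes LPIN1, ACLY and ACACA and the sterol enzymes ACAT2 and LSS, with mean FPKM 1.46 to 2.12 times the control. ELOVL6, a fatty acid elongase, was the single member called lower. Of all genes tested, 8.38% were called higher and 16.5% lower at 48 h. At 72 h only INSIG2, an inhibitor of SREBP release, was called higher and no member was called lower, against 3.56% and 9.51% of all genes tested. An unadjusted p under 0.05 from limma was reached by 6 of 33 members at 72 h, beside 3320 of the 11214 genes tested. At that time voom on recovered reads also called 0 members lower. Between 72 h and 48 h no member was called by limma, and voom on recovered reads called 1 lower. An unadjusted p under 0.05 from limma was reached by 5 of 33 members there, beside 2838 of the 11214 genes tested. Of all genes tested, 2.19% were called higher and 1.86% lower at 72 h than at 48 h. Both comparisons with the control rest on the same 2 control libraries.

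**Figure D1:**
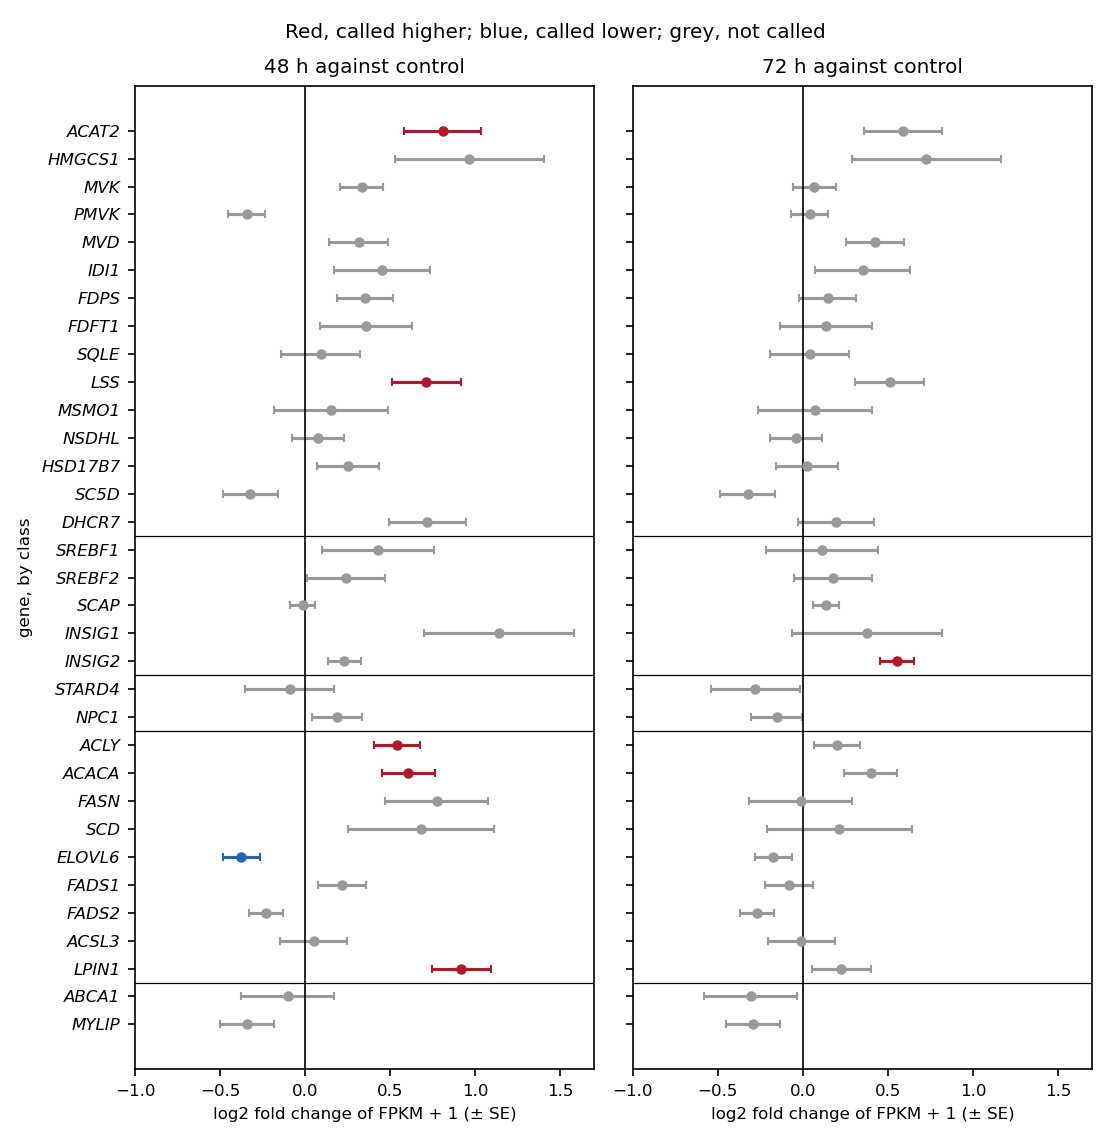
Log2 fold change of FPKM + 1 for the 33 tested genes (points) with the standard error from limma (bars), at 48 h (left) and 72 h (right) against control. The 5 genes called higher and the 1 called lower at 48 h and INSIG2 at 72 h are coloured, and several uncalled genes such as INSIG1 (1.14) lie farther from 0 than called ones but have wide bars.

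More members had higher than lower means at 48 h. Their log2 fold change was above 0 in 25 of 33, beside 4979 of the 11214 genes tested. Its median was 0.25, where that of all genes tested was -0.035. At 72 h it was above 0 in 22 of 33, beside 4501 of all genes, with a median of 0.11 beside -0.049. From 48 h to 72 h it was above 0 in 6 of 33, beside 5432 of all genes, with a median of -0.20 beside -0.0081. Both 48 h libraries lay above both control libraries for 12 members and below both for 5, against 27.3% and 38.7% of all genes tested. At 72 h the same counts were 6 and 3, against 21.2% and 37.2% of all genes. Between the knockdown times, 4 members had both 72 h libraries above both 48 h libraries and 10 had both below, against 28.2% and 30.7% of all genes.

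The first enzymes of sterol synthesis differed in level, with HMGCS1 more abundant than ACAT2 in every library. ACAT2, the cytosolic thiolase that joins acetyl-CoA units, had 14.3 and 9.59 FPKM in the controls, 21.9 and 20.7 after 48 h, and 22.6 and 14.6 after 72 h. All 4 knockdown libraries lay above both controls. Its log2 fold change was 0.81 (SE 0.23, adjusted p = 0.0439) at 48 h and 0.59 (SE 0.23, adjusted p = 0.143) at 72 h. The ends of its gene model overlap SOD2 and TCP1, of which the more abundant reached 174 FPKM, and reads of these genes cannot be told apart where strand was not used. Leaving out control library 2, 48 h library 1 or 48 h library 2 ended the call at 48 h, and the adjusted p was 0.0145 to 0.169 over the alternatives. HMGCS1, which makes HMG-CoA, had 52.7 and 22.8 FPKM in the controls, 76.6 and 61.8 after 48 h, and 83.7 and 40.4 after 72 h. Both 48 h libraries were above both controls, whereas a 72 h library was below the higher control. Its log2 fold change of 0.96 (SE 0.44, adjusted p = 0.153) at 48 h was not called, although it was larger than that of ACAT2.

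The kinases and the decarboxylase that turn mevalonate into the isoprenoid unit were expressed at lower levels. MVK, the first kinase, had 5.39 and 3.89 FPKM in the controls, 6.20 and 5.87 after 48 h, and 4.84 and 4.87 after 72 h, with both 48 h libraries above the controls and both 72 h libraries between them. PMVK, the next kinase, had 5.60 and 6.12 FPKM in the controls, 4.95 and 3.90 after 48 h, and 5.78 and 6.35 after 72 h. Both 48 h libraries of PMVK were below both controls, the opposite side to MVK. The log2 fold change at 48 h was 0.33 (adjusted p = 0.0964) for MVK and -0.34 (adjusted p = 0.0611) for PMVK, so that neither was called. MVD, the decarboxylase, had 8.68 and 5.89 FPKM in the controls, 9.61 and 8.71 after 48 h, and 11.1 and 8.88 after 72 h, all 4 knockdown values above the higher control, without a call.

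The enzymes that assemble squalene showed the same split between the control libraries. IDI1, the isomerase of the isoprenoid unit, had 23.6 and 13.4 FPKM in the controls, 26.1 and 23.5 after 48 h, and 28.9 and 18.3 after 72 h. FDPS, which makes farnesyl diphosphate, had 44.0 and 33.4 FPKM in the controls, 55.5 and 43.5 after 48 h, and 45.9 and 39.4 after 72 h. For both genes 1 library at 48 h and 1 at 72 h lay below the higher control, so that the groups overlapped. FDFT1, the squalene synthase, had 32.0 and 17.6 FPKM in the controls, 32.3 and 29.4 after 48 h, and 31.2 and 22.015 after 72 h. SQLE, the epoxidase of squalene, had 90.9 and 57.3 FPKM in the controls, 76.1 and 77.9 after 48 h, and 88.0 and 62.6 after 72 h, all 4 knockdown values between the controls. The largest of the 4 log2 fold changes at 48 h was 0.45 for IDI1 (SE 0.28, adjusted p = 0.277).

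LSS, the cyclase that makes lanosterol, was the other sterol enzyme called at 48 h. It had 6.20 and 3.69 FPKM in the controls, 9.62 and 7.53 after 48 h, and 7.48 and 7.07 after 72 h, all 4 knockdown libraries above both controls. On the log2 scale the change was 0.71 (SE 0.20, adjusted p = 0.04395) at 48 h and 0.51 (SE 0.20, adjusted p = 0.148) at 72 h. The call at 48 h was kept in 8 of 17 alternatives (adjusted p 0.0128 to 0.184), and was lost without control library 2 or without any one of the 48 h and 72 h libraries.

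The enzymes that trim lanosterol to cholesterol differed in level and direction. DHCR7, which carries out the last reduction of one branch, had 53.9 and 32.7 FPKM in the controls, 75.5 and 64.4 after 48 h, and 53.1 and 43.8 after 72 h. Only the 48 h libraries lay above both controls, with a log2 fold change of 0.72 (SE 0.22, adjusted p = 0.0587) that missed the threshold. SC5D, the sterol desaturase acting just before it, had 5.73 and 4.07 FPKM in the controls, 3.90 and 3.46 after 48 h, and 4.23 and 3.17 after 72 h. Its 48 h libraries lay below both controls, and its log2 fold change of -0.32 (SE 0.16, adjusted p = 0.187) was not called. MSMO1, the C4 methyl oxidase, had 31.2 and 14.9 FPKM in the controls, 25.1 and 23.2 after 48 h, and 28.7 and 18.1 after 72 h. NSDHL, a dehydrogenase of the same step, had 19.0 and 15.1 FPKM in the controls, 18.0 and 17.9 after 48 h, and 19.2 and 14.2 after 72 h. HSD17B7, the ketoreductase of that step, had 3.44 and 2.13 FPKM in the controls, 3.58 and 3.30 after 48 h, and 3.27 and 2.38 after 72 h. None of these 3 genes was called, and their log2 fold changes at 48 h lay between 0.08 and 0.25.

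The other 3 sterol enzymes were not tested. CYP51A1, the lanosterol demethylase, was listed at 0 in all 6 libraries, and nearly all of the span of its gene model lies under AC000120.3 and AC000120.4, models on the same strand that were listed at 0 as well. TM7SF2, a sterol reductase, had 1 read in 1 of the 48 h libraries and 0 in the other 5, where 0 observed reads allow an expected count of up to 3. EBP, the sterol isomerase, had 9 and 3 reads in the controls, 10 and 7 after 48 h, and 6 and 8 after 72 h, or 0.097 to 0.321 FPKM. Of the span of EBP, 99.9% lies under another model on the same strand. How overlapping models were counted is not given in the sources used here, so these low values are those of the table, and the part of the overlap in them was not tested.

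Among the regulators, SREBF2 encodes the SREBP that mainly serves sterol synthesis. It had 22.1 and 12.7 FPKM in the controls, 21.9 and 18.3 after 48 h, and 20.3 and 18.0 after 72 h, all 4 knockdown values between the controls. The fold change on the log2 scale was 0.24 (SE 0.23, adjusted p = 0.472) at 48 h and 0.18 (SE 0.23, adjusted p = 0.651) at 72 h. SREBF1 encodes the SREBP that mainly serves fatty acid synthesis. It had 12.2 and 8.03 FPKM in the controls, 20.1 and 9.24 after 48 h, and 10.2 and 11.5 after 72 h, so that 1 library at 48 h stood above the other 5. The fitted log2 change was 0.43 (SE 0.33, adjusted p = 0.375) at 48 h and 0.11 (SE 0.33, adjusted p = 0.854) at 72 h. SCAP, the escort that senses sterols, had 14.6 and 14.3 FPKM in the controls, 13.7 and 14.96 after 48 h, and 15.5 and 16.6 after 72 h. It had the smallest standard error of the 33 tested members, with log2 fold changes of -0.02 (SE 0.08, adjusted p = 0.899) at 48 h and 0.14 (SE 0.08, adjusted p = 0.278) at 72 h.

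The INSIG genes, whose proteins retain SCAP, had different time courses. INSIG1, itself a known target of SREBP, had 20.2 and 8.27 FPKM in the controls, 40.2 and 22.1 after 48 h, and 21.9 and 13.5 after 72 h. Both 48 h libraries lay above both controls, and the 72 h libraries overlapped the controls. Its mean at 48 h was 2.19 times the control, with a log2 fold change of 1.14 (SE 0.44, adjusted p = 0.104), and at 72 h it was 0.38 (SE 0.44, adjusted p = 0.613). At 48 h INSIG1 was called by voom on recovered reads and, with limma, when the replicate number was taken as a block or without control library 1. Its log2 fold change at 48 h was 0.54 to 1.74 over the alternatives. INSIG2 had 2.87 and 2.38 FPKM in the controls, 3.48 and 3.02 after 48 h, and 4.19 and 4.43 after 72 h, with all 4 knockdown libraries above both controls and the 72 h libraries above the 48 h ones. Its log2 fold change was 0.23 (SE 0.10, adjusted p = 0.132) at 48 h and 0.55 (SE 0.10, adjusted p = 0.0184) at 72 h, and the direct comparison of 72 h with 48 h gave 0.32 (SE 0.10, adjusted p = 0.107). The call of INSIG2 was lost without a filter and without control library 2 or either 72 h library. Its log2 fold change at 72 h was 0.29 to 0.71 over the alternatives.

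**Figure D2:**
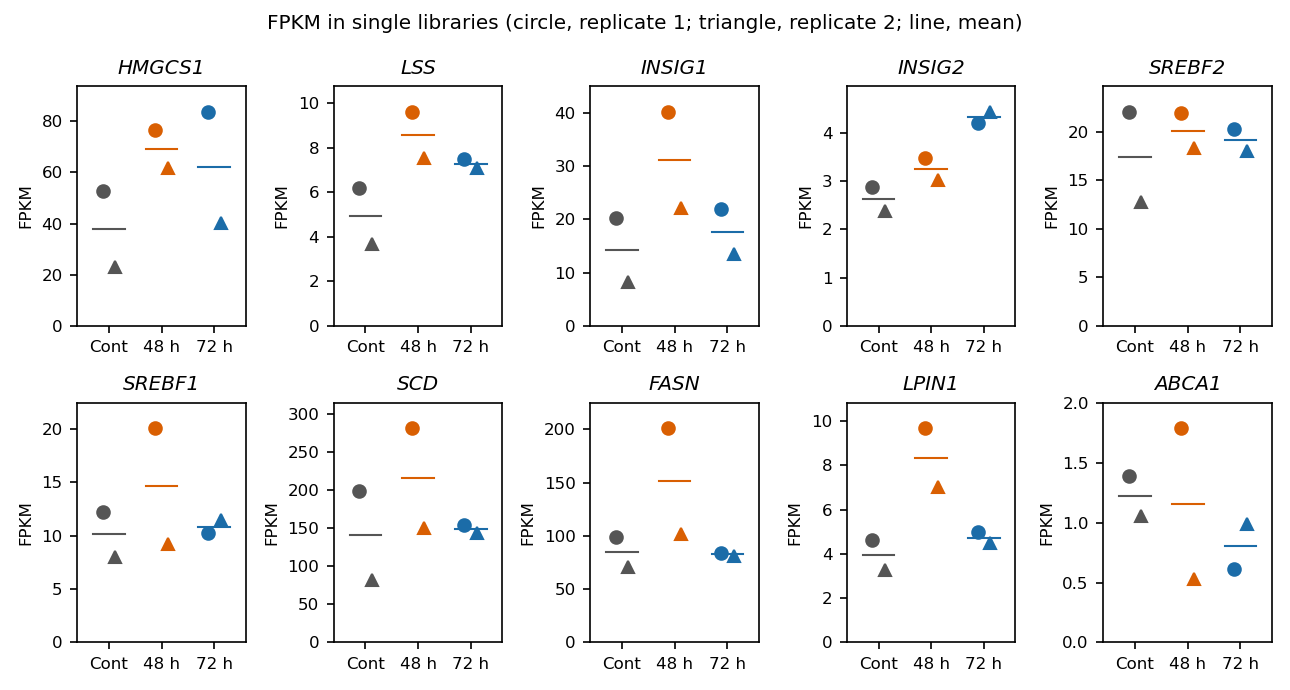
FPKM in each of the 6 libraries for 10 members, with the group mean as a line. The 48 h library 1 is the highest of the 6 for INSIG1, SREBF1, SCD, FASN, LPIN1, LSS and ABCA1, and INSIG2 is highest in the 72 h libraries (4.19 and 4.43).

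The genes of sterol transport were not called. STARD4, which carries cholesterol between membranes, had 11.6 and 6.08 FPKM in the controls, 9.25 and 6.69 after 48 h, and 6.85 and 6.74 after 72 h, all between the controls. NPC1, which moves cholesterol out of lysosomes, had 8.21 and 5.79 FPKM in the controls, 8.64 and 7.39 after 48 h, and 6.34 and 5.88 after 72 h, the 72 h libraries below the 48 h ones. Their log2 fold changes at 72 h were -0.28 for STARD4 and -0.15 for NPC1.

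The 9 enzymes of fatty acid and glycerolipid synthesis held 4 of the 6 calls at 48 h. ACLY, which makes cytosolic acetyl-CoA from citrate, had 86.0 and 71.0 FPKM in the controls, 125 and 103 after 48 h, and 96.5 and 84.0 after 72 h. Its 48 h libraries were above both controls and above both 72 h libraries, with a log2 fold change of 0.54 (SE 0.14, adjusted p = 0.0308) at 48 h and 0.20 (SE 0.14, adjusted p = 0.370) at 72 h. ACACA, the carboxylase that makes malonyl-CoA, had 13.5 and 10.4 FPKM in the controls, 21.4 and 16.2 after 48 h, and 15.8 and 16.2 after 72 h, all 4 knockdown libraries above both controls. On the log2 scale the change was 0.61 (SE 0.15, adjusted p = 0.0326) at 48 h and 0.40 (SE 0.15, adjusted p = 0.143) at 72 h. LPIN1, a phosphatidate phosphatase of triglyceride synthesis, had 4.63 and 3.26 FPKM in the controls, 9.68 and 7.01 after 48 h, and 4.999 and 4.48 after 72 h. Its mean at 48 h was 2.12 times the control, with both 48 h libraries above the other 4. The log2 fold change of LPIN1 was 0.92 (SE 0.17, adjusted p = 0.01285) at 48 h and 0.23 (SE 0.17, adjusted p = 0.435) at 72 h, and 72 h against 48 h gave -0.69 (SE 0.17, adjusted p = 0.0725). Without a filter, control library 2 or 48 h library 1 the calls of all 3 genes were lost. Without 48 h library 2 that of ACLY was lost. The call of ACACA was also lost without either 72 h library and in the fit of the compared groups alone. Over the alternatives the adjusted p was 0.001824 to 0.073 for LPIN1, 0.008 to 0.141 for ACLY and 0.008025 to 0.135 for ACACA.

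FASN and SCD differed widely between the libraries of a group and were not called. FASN, the fatty acid synthase, had 98.7 and 70.8 FPKM in the controls, 201 and 102 after 48 h, and 84.3 and 81.6 after 72 h. The 48 h library 2 was close to the higher control, and 48 h library 1 stood far above the other 5. The fold change on the log2 scale was 0.77 (SE 0.30, adjusted p = 0.107) at 48 h and -0.01 (SE 0.30, adjusted p = 0.986) at 72 h. At 48 h FASN was called by voom on recovered reads and, with limma, when the replicate number was taken as a block or without 48 h library 2. Its log2 fold change at 48 h was 0.29 to 1.26 over the alternatives. SCD, the stearoyl-CoA desaturase and the most abundant member, had 198 and 82.5 FPKM in the controls, 281 and 150 after 48 h, and 154 and 144 after 72 h. A 48 h library and both 72 h libraries lay between the controls, and the log2 fold change at 48 h was 0.68 (SE 0.43, adjusted p = 0.281).

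Of the other enzymes of the class, ELOVL6 was called lower at 48 h and FADS1, FADS2 and ACSL3 were not called. ELOVL6, which extends palmitate to stearate, had 10.9 and 9.62 FPKM in the controls, 7.98 and 7.35 after 48 h, and 8.12 and 9.89 after 72 h. Its 48 h libraries lay below both controls, with a log2 fold change of -0.38 (SE 0.11, adjusted p = 0.0454) at 48 h and -0.17 (SE 0.11, adjusted p = 0.334) at 72 h. This call was kept in 8 of 17 alternatives (adjusted p 0.0187 to 0.193) and was lost without any one of the control or 48 h libraries. FADS2, the first desaturase of polyunsaturated fatty acids, had 3.70 and 2.98 FPKM in the controls, 2.61 and 2.75 after 48 h, and 2.54 and 2.63 after 72 h, with all 4 knockdown libraries below both controls but no call. FADS1, the next desaturase, had 9.88 and 8.20 FPKM in the controls, 12.2 and 9.28 after 48 h, and 9.02 and 7.91 after 72 h. The span of FADS1 lies wholly within the model of FADS2 on the opposite strand, so that without strand their reads cannot be told apart. Of the span of FADS2, 5.73% lies under FEN1 on the same strand, which reached 46.5 FPKM. The part of that overlap in the values of FADS2 was not tested. ACSL3, an acyl-CoA synthetase of lipid droplets, had 51.0 and 35.4 FPKM in the controls, 51.3 and 37.7 after 48 h, and 44.1 and 40.4 after 72 h, with overlap between all groups.

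The efflux genes were few and low. ABCA1, the LXR target that exports cholesterol, had 1.39 and 1.05 FPKM in the controls, 1.79 and 0.526 after 48 h, and 0.616 and 0.988 after 72 h. The libraries of the earlier time held both the highest and the lowest value of the 6. ABCA1 passed the filter through 3 libraries, which were both controls and 48 h library 1, and neither 72 h library reached 1 FPKM. The fitted log2 change was -0.10 (SE 0.27, adjusted p = 0.812) at 48 h and -0.31 (SE 0.27, adjusted p = 0.507) at 72 h. MYLIP, an LXR-induced ubiquitin ligase that marks lipoprotein receptors for degradation, had 3.52 and 3.28 FPKM in the controls, 3.11 and 1.93 after 48 h, and 2.81 and 2.38 after 72 h, all 4 knockdown libraries below both controls. Its log2 fold change was -0.34 (SE 0.16, adjusted p = 0.161) at 48 h and -0.29 (SE 0.16, adjusted p = 0.276) at 72 h. ABCG1, another cholesterol exporter, was not tested. It had 25 and 35 reads in the controls, 85 and 17 after 48 h, and 7 and 26 after 72 h, the 48 h libraries again lying on both sides of the controls.

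By class, the fatty acid enzymes had a median log2 fold change of 0.54 at 48 h (7 of 9 above 0) and -0.01 at 72 h (4 of 9 above 0). The sterol enzymes had 0.33 at 48 h and 0.13 at 72 h, with 13 of 15 above 0 at both times. The regulators had 0.24 and 0.18, and the 2 tested efflux genes -0.22 and -0.30. Of these 2, ABCA1 passed the filter without either 72 h library, so that their median at 72 h is not evidence of a decrease. Single pairs of libraries gave different pictures. Against control library 1 the median of the sterol enzymes was 0.13 and -0.02 in the 48 h libraries and 0.01 and -0.35 in the 72 h libraries. Against control library 2 it was 0.71 and 0.50 for the 48 h libraries, then 0.68 and 0.26 for those of 72 h. The fatty acid enzymes gave 0.50 and -0.08 at 48 h and -0.20 and -0.27 at 72 h against control library 1, and 0.81, 0.52, 0.31 and 0.20 against control library 2. The sterol and fatty acid medians were thus above 0 in all 4 knockdown libraries only against control library 2. Without that library 0 members were called higher at 48 h, where 490 of all genes tested were, in place of 940 with all libraries. Without 48 h library 1 the counts were 0 members and 405 genes, and without control library 1 they were 9 members and 410 genes.

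**Figure D3:**
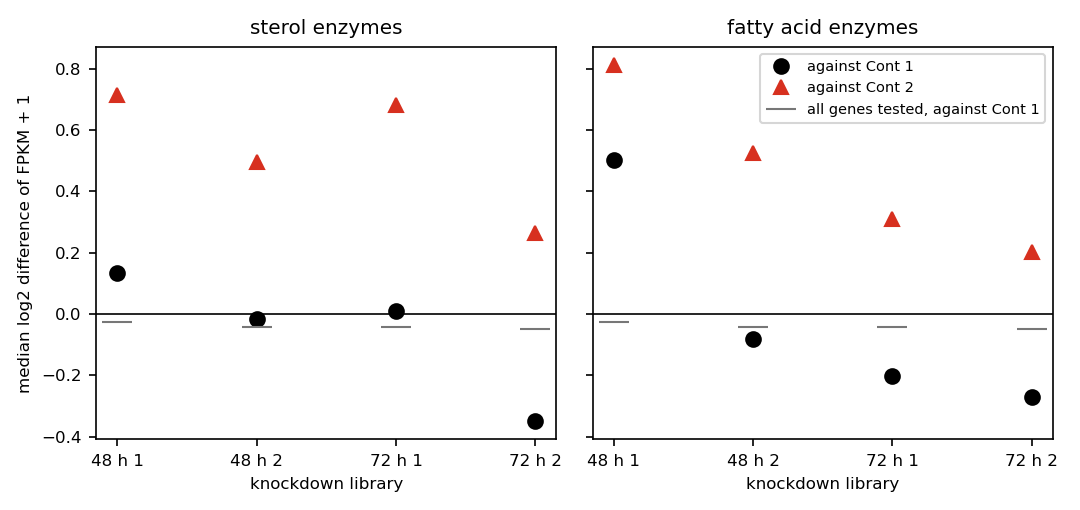
Median log2 difference of FPKM + 1 between each knockdown library and each control library, for the sterol enzymes (15 genes) and the fatty acid enzymes (9 genes). The grey bar is the median of all genes tested against control 1 only. Every triangle (against control 2) lies above its circle (against control 1).

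The libraries of a group differed in these genes more than in most others. In the control group, library 1 was above library 2 for 32 of 33 members (97.0%), where 48.2% of all genes tested were. At 48 h it was above for 30 of 33 (90.9%), against 53.9% of all genes, and at 72 h for 24 of 33 (72.7%), against 51.2%. The median difference of library 1 minus library 2 over the members was 0.47 on the log2 scale in the control group, 0.25 at 48 h and 0.16 at 72 h, and over all genes it was -0.0069, 0.014 and 0.0048. The median SD within groups was 0.250 for the members and 0.0878 for all genes tested, and 32 of 33 members lay above the latter. The largest differences between control libraries were 1.26 for SCD, 1.19 for INSIG1, 1.17 for HMGCS1 and 1.02 for MSMO1.

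Which genes differed depended on the group. At 72 h HMGCS1 (1.03), INSIG1 (0.66), MSMO1 (0.64) and other sterol enzymes differed most between the libraries, and SCD (0.10) and FASN (0.05) hardly did. At 48 h it was SREBF1 (1.04), FASN (0.97), SCD (0.90), ABCA1 (0.87) and INSIG1 (0.83), whereas MSMO1 differed by 0.11. The median difference of the sterol enzymes was 0.53 in the control group, 0.13 at 48 h and 0.34 at 72 h, and that of the fatty acid enzymes was 0.35, 0.38 and 0.10. Across the 33 members the control and 72 h differences had a Pearson correlation of 0.641, beside 0.159 across all genes tested. The control and 48 h differences had 0.260, and the 48 h and 72 h differences -0.223. These are correlations across genes of 6 libraries, and genes are not independent replicates.

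**Figure D4:**
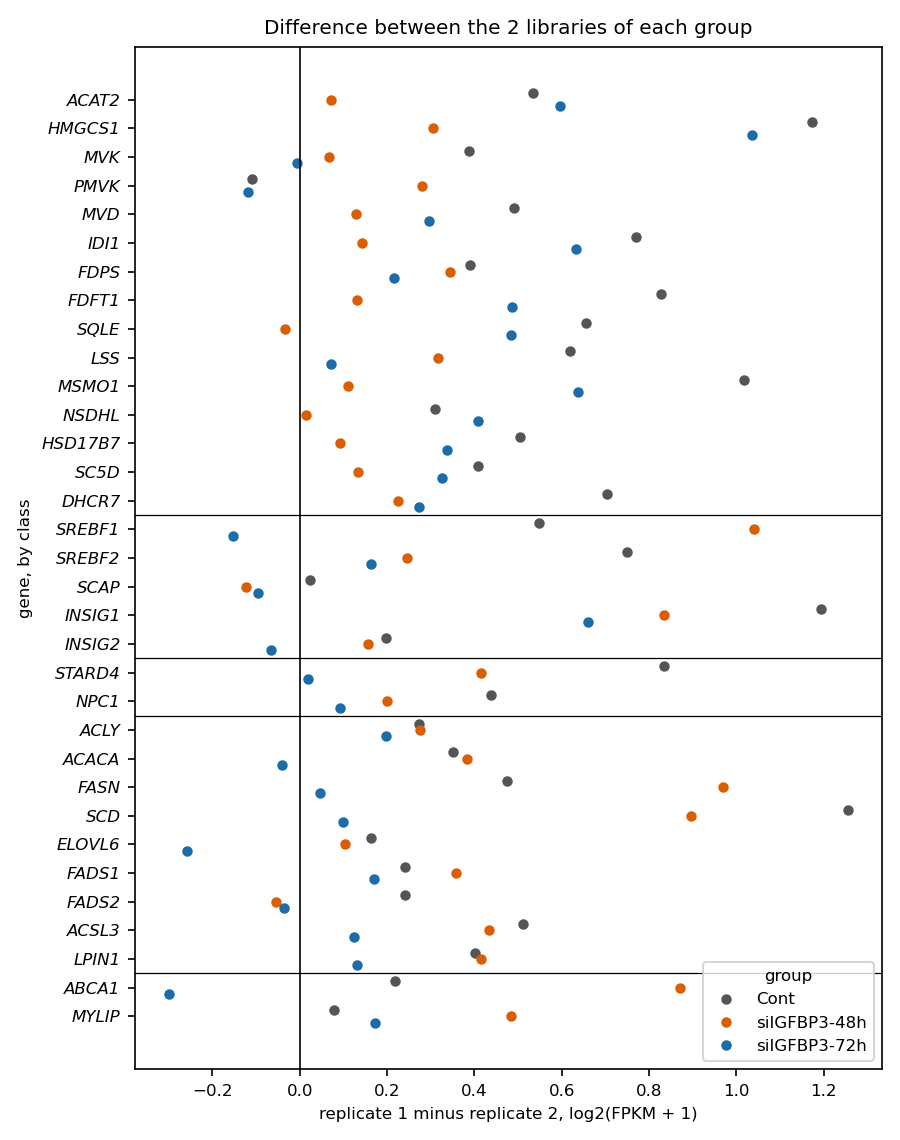
Library 1 minus library 2 of each group in log2(FPKM + 1), for the 33 tested members by class. Control points (grey) lie right of 0 for 32 of 33 members, the 72 h points (blue) lie far right mainly among the sterol enzymes, and the 48 h points (orange) lie far right for SREBF1, FASN, SCD, ABCA1 and INSIG1.

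**Figure D5:**
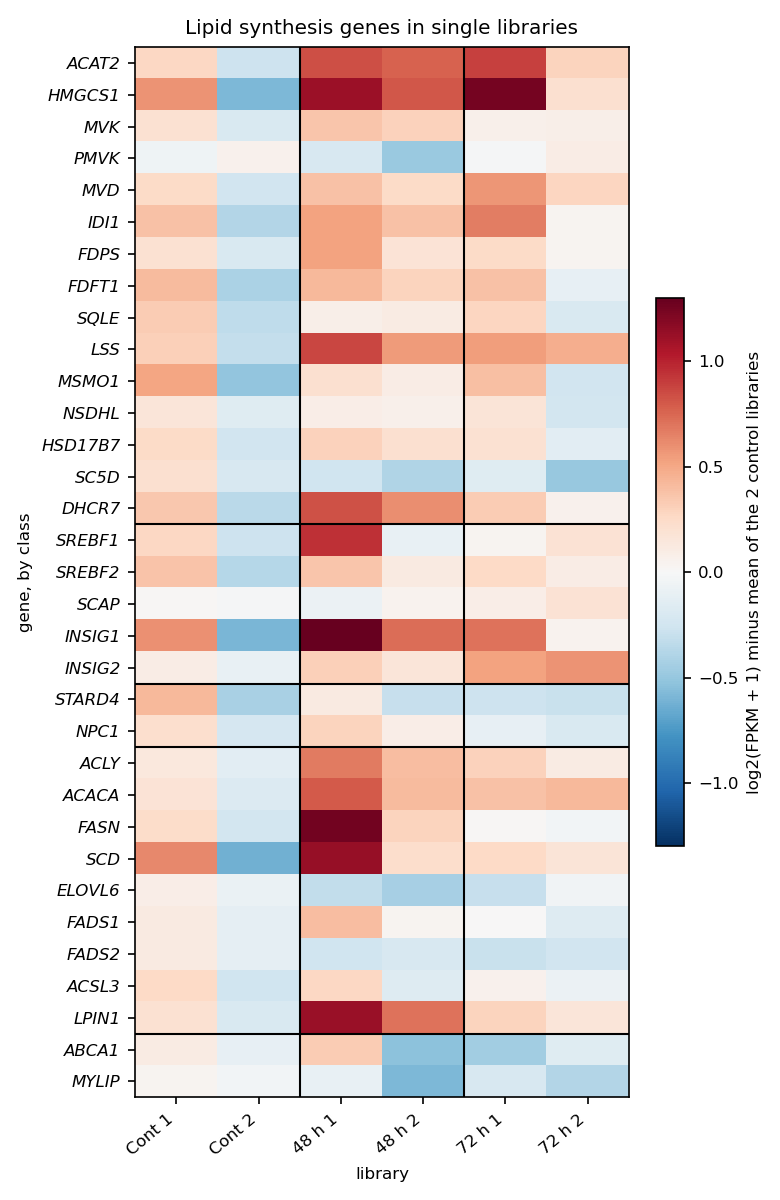
log2(FPKM + 1) of the 33 tested members in each library, minus the mean of the control libraries, with genes grouped as sterol enzymes, regulators, sterol transport, fatty acid enzymes and efflux genes from top to bottom. Control library 2 is blue for nearly all genes, and 48 h library 1 is dark red in INSIG1, FASN, SCD, HMGCS1 and LPIN1.

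The promoters of these genes were searched for the letters of 4 known motifs. The part of these motifs in the differences between libraries was not tested. RefSeq promoter windows of 300 bases around the start (GRCh38.p14) were at hand for 32 of the 37 genes, in 44 windows. Sequences are given for the windows of the 3 genes that differed most between the control libraries (INSIG1, HMGCS1 and SCD) and for that of SREBF2, the one member with the searched sterol regulatory element. Each is printed from 5′ to 3′ on the strand of the gene, with matches to TCACNCCAC (sterol regulatory element, bound by SREBP), CCAAT (bound by NF-Y) and GGGCGG (bound by Sp1) on either strand in capitals. The INSIG1 window is chr7:155297628-155297927 on the plus strand, that of HMGCS1, the more upstream of its windows, is chr5:43313363-43313662 on the minus strand, that of SCD is chr10:100346983-100347282 on the plus strand and that of SREBF2 is chr22:41832855-41833154 on the plus strand.
INSIG1: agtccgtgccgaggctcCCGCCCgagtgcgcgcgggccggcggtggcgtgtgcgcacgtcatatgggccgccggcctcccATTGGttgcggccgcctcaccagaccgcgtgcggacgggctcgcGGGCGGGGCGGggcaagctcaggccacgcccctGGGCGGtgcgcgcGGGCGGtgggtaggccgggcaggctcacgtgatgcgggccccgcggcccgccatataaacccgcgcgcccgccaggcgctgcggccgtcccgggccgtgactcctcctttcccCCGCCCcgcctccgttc
HMGCS1: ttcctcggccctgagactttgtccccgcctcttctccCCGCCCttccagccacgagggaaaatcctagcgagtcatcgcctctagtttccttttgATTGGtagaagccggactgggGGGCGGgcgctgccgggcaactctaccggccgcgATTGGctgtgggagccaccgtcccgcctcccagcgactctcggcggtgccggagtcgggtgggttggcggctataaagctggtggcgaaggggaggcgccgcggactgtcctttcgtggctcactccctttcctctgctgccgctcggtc
SCD: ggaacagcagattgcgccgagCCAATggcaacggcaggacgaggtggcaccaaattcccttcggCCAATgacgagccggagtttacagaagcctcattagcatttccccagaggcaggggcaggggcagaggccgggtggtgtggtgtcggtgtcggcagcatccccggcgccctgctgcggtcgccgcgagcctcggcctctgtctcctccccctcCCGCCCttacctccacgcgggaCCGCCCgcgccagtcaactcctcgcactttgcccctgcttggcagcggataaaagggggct
SREBF2: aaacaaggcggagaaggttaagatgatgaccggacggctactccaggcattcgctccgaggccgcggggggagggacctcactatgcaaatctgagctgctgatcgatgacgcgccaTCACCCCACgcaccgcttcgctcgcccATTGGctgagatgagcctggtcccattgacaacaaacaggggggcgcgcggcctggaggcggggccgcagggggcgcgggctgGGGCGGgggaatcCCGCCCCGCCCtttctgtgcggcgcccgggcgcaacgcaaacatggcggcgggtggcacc

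All 4 windows hold at least 1 CCAAT and at least 2 GGGCGG matches, and in SREBF2 the sterol regulatory element lies shortly upstream of a CCAAT on the other strand. Among the 44 member windows, 26 (59.1%) held CCAAT and 39 (88.6%) held GGGCGG, compared with 34.6% and 45.0% of all 35116 windows. Those 35116 windows were not limited to the genes tested here, so that members were not set against other expressed genes. TCACNCCAC was found in 1 member window (2.27%) and in 1.13% of all, and the LXR motif DR4, a pair of AGGTCA spaced by 4 bases, in 0 member windows and 0.0199% of all. GGGCGG matches can overlap one another, as they do in INSIG1 and SREBF2. Of the 32 member genes with a window, 31 had GGGCGG and 22 had CCAAT. Among the called members, LPIN1, ELOVL6 and INSIG2 had GGGCGG but no CCAAT match, whereas ACLY, ACACA and LSS had both. ACAT2, also called, had no window. A match is a description of the letters, and no match says only that these letters are not in the window.

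Other genes of lipid metabolism were taken from a list of 57, of which 52 were tested. At 48 h, 4 were called lower and 6 higher, against 16.5% and 8.38% of all genes tested, and their median log2 fold change was -0.0012. SCD5, a desaturase related to SCD, had 11.2 and 8.88 FPKM in the controls, 2.50 and 2.68 after 48 h, and 4.88 and 5.75 after 72 h, so that its knockdown libraries all lay below the controls. On the log2 scale the change was -1.61 (adjusted p = 0.000958) at 48 h and -0.80 (adjusted p = 0.0108) at 72 h. SEC24D, a coat protein of the vesicles that leave the endoplasmic reticulum, was also lower at both times, by -1.005 (adjusted p = 0.00142) and -0.65 (adjusted p = 0.00732). ACSL4, an acyl-CoA synthetase for polyunsaturated fatty acids, was lower by -0.78 (adjusted p = 0.001925) and -0.90 (adjusted p = 0.00235). Among the genes called higher at 48 h were SCARB1, a lipoprotein receptor (0.39, adjusted p = 0.0091), SOAT1, which esterifies cholesterol for storage (0.33, adjusted p = 0.0215), and ACSL5, another acyl-CoA synthetase (0.69, adjusted p = 0.0377). The call of SCARB1 was lost without 48 h library 1 (adjusted p 0.002759 to 0.052 over the alternatives). That of SOAT1 was lost without any one of the control and 48 h libraries (0.0116 to 0.0946), and that of ACSL5 without control library 2 or either 48 h library (0.0135 to 0.1497). At 72 h, 4 were called lower and 1 higher, against 9.51% and 3.56% of all genes tested, the latter being LIPA, the lysosomal lipase that frees cholesterol from its esters (0.80, adjusted p = 0.0111). Without 72 h library 2 the 72 h call of LIPA was lost, and without 72 h library 1 that of SCD5, with adjusted p of 0.001197 to 0.0684 and 0.001505 to 0.0684 over the alternatives. LIPA had 26.4 and 21.0 FPKM in the controls, 33.7 and 30.7 after 48 h, and 39.5 and 44.2 after 72 h. SCARB1 differed little within groups, with 15.8 and 15.3 FPKM in the controls, 21.1 and 20.2 after 48 h, and 16.0 and 16.2 after 72 h.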

How the data were processed

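RNA was extracted with a column kit and sequenced on a DNBSEQ instrument. Reads were aligned by the authors with HISAT2 2.0.1. The submitters' processing notes also name HTSeq 0.6.1, DESeq2 and GRCh38. Annotation release and strand handling are not given in the sources used here. The deposited values are FPKM, which the authors gave for 66351 gene models in 6 libraries. The 6831 unnamed models were left out. Read totals were recovered from the FPKM steps and the gene lengths, with 99.997% of values whole within 0.1 read where 3 decimals resolve a read. The 11214 named genes with at least 1 FPKM in at least 2 libraries were tested on log2(FPKM + 1) by limma (version 3.58.1, R 4.3.3) using group means and a variance trend, and p values were adjusted by Benjamini-Hochberg over all of them (threshold 0.05). This scale understates changes of low genes. An exact permutation test of 2 against 2 libraries cannot go below p = 0.333.

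The members and lists were chosen with earlier results of these data known. All 37 members are named, with full statistics for called members, regulators and efflux genes. From the wider list, up to 3 genes per direction and comparison were named by smallest adjusted p. Replicate numbers were not used as pairs. Alternatives were other pseudocounts, filters and scalings, fits on fewer groups, with a block or without a trend, unnamed models, voom on recovered reads and leaving out each library. Applying them to the wider list was decided after seeing the data.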

Additional observations from a re-analysis of the deposited data

Results flagged for a closer look

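The effects at 48 h and at 72 h differed for 2 genes of the wider lipid list when the knockdown times were compared directly in limma. They differed for 0 of the 33 tested members, of which 5 had an unadjusted p under 0.05, beside 2838 of the 11214 genes tested. SCD5 was less reduced at 72 h, with a log2 difference of 0.81 between 72 h and 48 h (adjusted p = 0.0295). SCARB1 was called higher at 48 h and not at 72 h, with a log2 difference of -0.34 between 72 h and 48 h (adjusted p = 0.0440). Neither call was kept when the replicate number was taken as a block, when unfiltered genes or unnamed models were included, or without any one of the 48 h or 72 h libraries. The 4 libraries compared give 2.50 and 2.68 FPKM at 48 h and 4.88 and 5.75 at 72 h for SCD5, and 21.1 and 20.2 against 16.0 and 16.2 for SCARB1, without overlap.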

How the results depend on the processing

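Of 1665 values of single members under 17 alternatives, 1446 were counted as the same. A further 159 stayed uncalled but moved by more than their standard error. Calls were lost by 41 and gained by 19, and 67 changed sign, all of them uncalled. The 5 members higher at 48 h became 0 without a filter, 3 in the fit of the compared groups alone, 3 without a variance trend, 3 with unnamed models, 8 with voom on recovered reads, and 0 to 9 when a library was left out. The 1 lower became 0 without a filter, with quantile normalization, without a trend and with unnamed models, and 0 to 2 when a library was left out. The 1 higher at 72 h became 0 without a filter and 0 at a minimum of 5 FPKM, which INSIG2 does not reach, and 0 to 2 when a library was left out. With voom 1 member was lower at 72 h than at 48 h. The replicate number as a block gave 10 members higher and 0 lower at 48 h, FASN and INSIG1 among them, where 848 and 1669 of all genes were called. It gave 1 member lower at 72 h than at 48 h, where 73 of all genes were. Differences of library 1 minus library 2 correlated at -0.003 (control and 48 h), 0.159 (control and 72 h) and -0.123 (48 h and 72 h) over all genes. Across the members the same values were 0.260, 0.641 and -0.223. The labels do not say whether the numbers mark pairs, and the main fit did not use them. Leaving out a library moved the median of the fatty acid enzymes at 48 h to between 0.10 and 0.68, at 72 h to between -0.25 and 0.25 and for 72 h against 48 h to between -0.47 and -0.064, and that of the sterol enzymes at 48 h to between 0.07 and 0.56, at 72 h to between -0.13 and 0.55 and for 72 h against 48 h to between -0.32 and 0.089. Over all genes, quantile normalization changed the split of calls from 940 higher and 1845 lower to 1375 and 1419 at 48 h and from 399 and 1066 to 552 and 675 at 72 h, voom called 1180 and 2141, 570 and 1412, and 599 and 554 for 72 h against 48 h, and no filter gave 423 and 1009, 97 and 274, and 10 and 8, where 246 and 209 were called for 72 h against 48 h. The cause of these changes was not tested. With 2 libraries per group, uncalled members are not shown to be unchanged.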
